A study of Mus musculus with 16 samples.

Results

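The 10 genes described here encode heat shock proteins and chaperones: Hspa1b, Hspa8, Hspa5, Hspa4 and Hsph1 of the HSP70 and HSP110 families, Dnajb1, Hsp90aa1, Hspb1, Hspd1 and Hspe1. They were taken by gene symbol from an expression study of mouse bone, with every probe set that the array's annotation gives to 1 of these symbols. This gave 28 probe sets, of 45037 that were not controls, and none of them was listed with several genes. All 10 genes were among the 12735 genes tested, of 18193 on the array.

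The tissue was the last 5 mm of the left femur at its distal end, from female C57BL/6 mice that were all ovariectomized, and each of 16 mice had an array of its own. The groups, with 4 mice each, were wild type with estrogen (WT-E2-4hr), wild type with vehicle (WT-OVX), knockout with estrogen (ERaKO-E2-4hr) and knockout with vehicle (ERaKO-OVX), and bone was taken 4 hours after treatment. The knockout mice lacked estrogen receptor alpha in osteoclasts only, so other cells of the bone kept the receptor. The Cre line, the estrogen compound and its dose, and the age of the mice are stated in none of the sources used here.

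Chaperones bind unfolded or partly folded proteins and help them to fold, to assemble or to be broken down. HSP70 proteins such as Hspa1b and Hspa8 do this in rounds of ATP use, which a J protein such as Dnajb1 starts and a nucleotide exchange factor of the HSP110 type, such as Hsph1 or Hspa4, renews. HSP90 proteins receive clients from HSP70, among them the steroid receptors, which stay able to bind hormone in the complex with HSP90. Heat shock factor 1 turns on the stress-inducible members through heat shock elements in their promoters, whereas Hspa5, the HSP70 of the endoplasmic reticulum, is a target of the unfolded protein response.

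Promoters are shown for 4 members whose upstream bases hold the elements of these separate control systems. RefSeq windows of 300 bases, from 250 before to 50 after the annotated start on GRCm38.p6, were at hand for 8 of the 10 members, all but Hspa8 and Hsp90aa1. Printed are the 250 bases before the start, 5′ to 3′ on the gene's own strand. They lie at chr1:55087898-55088147 for Hspe1 (plus strand), chr5:135887669-135887918 for Hspb1 (plus strand), chr17:34959239-34959488 for Hspa1b (minus strand) and chr2:34771840-34772089 for Hspa5 (plus strand). Capitals mark heat shock elements in the first 3 and an endoplasmic reticulum stress element in Hspa5.
Hspe1: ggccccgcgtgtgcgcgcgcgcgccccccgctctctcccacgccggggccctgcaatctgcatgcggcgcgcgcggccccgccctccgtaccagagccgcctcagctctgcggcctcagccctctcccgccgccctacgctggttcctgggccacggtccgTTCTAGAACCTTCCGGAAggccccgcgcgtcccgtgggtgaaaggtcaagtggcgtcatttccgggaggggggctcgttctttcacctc
Hspb1: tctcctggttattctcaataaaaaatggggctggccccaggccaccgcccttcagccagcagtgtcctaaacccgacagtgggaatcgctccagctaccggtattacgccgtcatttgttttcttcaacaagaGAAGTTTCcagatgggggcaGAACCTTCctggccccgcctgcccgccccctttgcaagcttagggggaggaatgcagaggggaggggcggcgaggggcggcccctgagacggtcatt
Hspa1b: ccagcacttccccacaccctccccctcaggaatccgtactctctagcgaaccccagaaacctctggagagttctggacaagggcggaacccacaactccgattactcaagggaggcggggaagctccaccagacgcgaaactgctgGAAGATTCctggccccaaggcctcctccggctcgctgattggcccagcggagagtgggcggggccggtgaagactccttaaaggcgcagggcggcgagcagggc
Hspa5: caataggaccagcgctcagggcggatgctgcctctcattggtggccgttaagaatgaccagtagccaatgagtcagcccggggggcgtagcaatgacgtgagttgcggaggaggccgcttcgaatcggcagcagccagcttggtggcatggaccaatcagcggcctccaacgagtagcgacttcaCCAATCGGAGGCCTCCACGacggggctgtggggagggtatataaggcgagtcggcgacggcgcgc

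The heat shock element was searched as GAANNTTC or TTCNNGAA, where N is any base, and both forms read the same on either strand. At least 1 match lay in the windows of 5 members, Hspa1b with 1 match, Hspb1 with 2, and Hsph1, Hspd1 and Hspe1 with 3 each, against 15.1% of all 32851 promoter windows in the table. A member was counted if any of its windows matched, and the 8 members had 11 windows, whereas the shares given here are of windows. The Dnajb1 windows and 1 of the Hspd1 windows held no match. The longer form, with a further alternating GAA or TTC unit 2 bases on, lay in the windows of Hsph1, Hspd1 and Hspe1 and in 0.603% of all windows. Hspd1 and Hspe1, the mitochondrial chaperonin and its lid, are read in opposite directions from 1 shared promoter, and their windows overlapped by 285 bases, so their matches are the same sites. The endoplasmic reticulum stress element, CCAAT and CCACG with 9 bases between them, searched on both strands, lay in the window of Hspa5 and of no other member, and in 0.119% of all windows. The full estrogen response element, GGTCA and TGACC with 3 bases between them, which also reads the same on either strand, lay in 0.07% of all windows and in none of the 8 members' windows. These matches describe letters in a short window and do not show binding.

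All values below are the deposited array signals on a linear scale, with mean ± SD over mice, and differences are on the scale log2(signal + 16). Signals of different probe sets are not set against each other, since probes differ in how brightly they bind. The lowest of the 10 genes' mean signals was above the limit for testing, a mean of 109. Replicates 3 and 4 of every group differed from replicates 1 and 2 over many genes, a split that earlier work had told apart from these same arrays, and the labels do not say what these replicate numbers stand for. The summed signal of 20 skeletal muscle genes ran from 5410 to 46282 in the 8 mice of replicates 3 and 4, against 109084 to 889734 in the 8 mice of replicates 1 and 2, without overlap. Osteoclast genes, 10 in number, summed to between 45833 and 68942 in replicates 3 and 4, against 23041 to 43944 in replicates 1 and 2, and 9 osteoblast and osteocyte genes summed to between 89865 and 136517 over all arrays. In whole tissue, fewer cells of a type and less RNA per cell cannot be told apart. In 3 arrays (WT-E2-4hr replicate 2, WT-OVX replicate 2 and ERaKO-E2-4hr replicate 1) the spike-in controls averaged 28518 to 50791, against 7752 to 14563 in the other 13. The ratio of the 3′ to the 5′ probe signal of Actb is a sign of RNA quality. It was 2.07 to 3.53 in the same 3 arrays, against at most 1.5 in the other 13. By replicate set it was 1.17 to 1.25 in replicates 3 and 4, against 1.24 to 3.53 in replicates 1 and 2. For Gapdh the ratio was 1.04 to 1.14, against 1.08 to 2.58, and the spike-in controls averaged 7752 to 9887, against 9413 to 50791. The part of RNA quality in the results, the comparison of replicate sets among them, was not tested. Esr1, the gene of estrogen receptor alpha, has 3 probe sets. The brightest read 409 to 753 in ERaKO-E2-4hr and 434 to 664 in WT-E2-4hr, and 580 to 723 in ERaKO-OVX and 792 to 1100 in WT-OVX. Another read 57 to 138 in ERaKO-E2-4hr and 79 to 149 in WT-E2-4hr, and 89 to 104 in ERaKO-OVX and 175 to 197 in WT-OVX. In the last probe set all groups overlapped. Whole bone does not isolate the osteoclasts in which Esr1 was deleted.

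Estrogen had no detected effect on the 10 genes in wild-type bone at 4 hours. None of the 10 members and none of their 28 probe sets passed an adjusted p of 0.05 (limma with Benjamini-Hochberg adjustment), nor did any of the 12735 genes tested (0%). At an unadjusted p under 0.05 there was 1 member, Hsph1, against 1107 of all genes (8.69%). Of the 10 members, 4 had a higher and 6 a lower mean with estrogen, and their median difference was −0.14 on the log2 scale, against −0.01 over all genes. The count near the background is not a result about these genes, and the 4 mice a group limit what could be detected.

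Hsph1, the HSP110 exchange factor that works with HSP70 and is induced by heat, was the member with the smallest p in wild-type bone. Its signal was 674, 1216, 775 and 662 in WT-E2-4hr mice (replicates 1 to 4), against 1331, 1415, 1039 and 973 in WT-OVX mice. Of the estrogen-treated mice 3 lay below every vehicle mouse, and the replicate 2 mouse lay among them. The means were 832 ± 261 with estrogen and 1189 ± 217 with vehicle (SD, n = 4 each), a difference of −0.54 ± 0.24 (SE) on the log2 scale with an adjusted p of 0.551 by limma. The second Hsph1 probe set gave −0.31 ± 0.21 for the same comparison (adjusted p = 0.894). Over the 29 other settings tried, the Hsph1 difference lay between −0.73 and −0.42, below 0 in each, with no adjusted p under 0.352 by limma.

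In knockout bone Hsph1 read 1372, 691, 1241 and 1617 with estrogen, against 1063, 1279, 1042 and 1243 with vehicle. The estrogen-treated mice lay on both sides of the vehicle mice, and the difference was 0.03 ± 0.24 (95% interval −0.48 to 0.54). The estrogen response of knockout minus that of wild-type bone was 0.56 ± 0.34 (SE; adjusted p = 0.709 by limma), so a dependence on the receptor was not shown for Hsph1. Under estrogen, Hsph1 averaged 1230 ± 392 in knockout mice and 832 ± 261 in wild-type mice (SD, n = 4 each), a difference of 0.54 ± 0.24 (SE; adjusted p = 0.721 by limma).

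**Figure D1:**
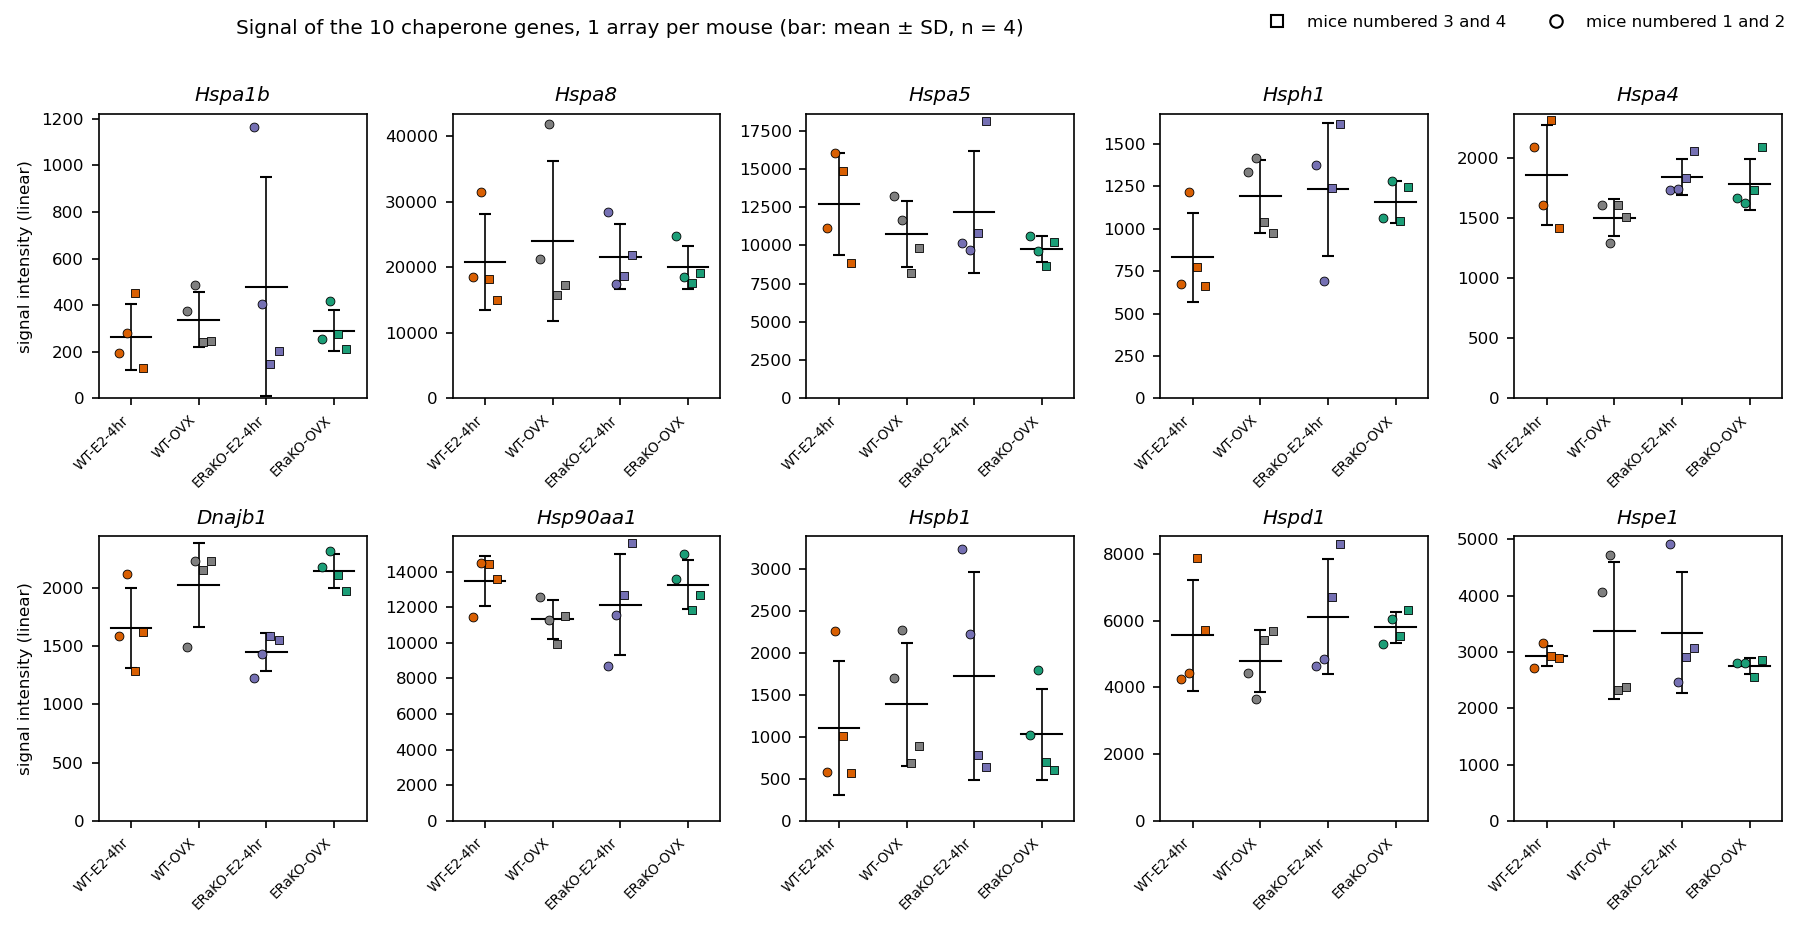
Array signal (linear scale) of the used probe set of each of the 10 genes in the 4 groups, WT-E2-4hr, WT-OVX, ERaKO-E2-4hr and ERaKO-OVX, with 1 point per mouse. Squares are replicates 3 and 4, circles are replicates 1 and 2, and bars give the mean ± SD (n = 4). The Dnajb1 signals of the ERaKO-E2-4hr mice (1226 to 1583) all lie under those of the ERaKO-OVX mice (1969 to 2319), and the Hspb1 and Hspa1b points spread widely inside each group.

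In knockout bone, Dnajb1 stood apart between estrogen and vehicle without passing the adjusted test. None of the 10 members or 28 probe sets passed, nor did any of all genes tested (0%), and 8 members had a higher and 2 a lower mean with estrogen (median 0.07, against 0.01 over all genes). Dnajb1 is the heat-inducible J protein of the cytosol that stirs the ATPase of HSP70. Its signal was 1226, 1431, 1583 and 1555 in ERaKO-E2-4hr mice, against 2177, 2319, 2109 and 1969 in ERaKO-OVX mice. Every estrogen-treated knockout mouse was below every vehicle knockout mouse, which was so for 367 of all 12735 genes (2.88%) in this comparison and direction. The difference was −0.56 ± 0.17 (SE) on the log2 scale (95% interval −0.91 to −0.21), with an unadjusted p of 0.00346 and an adjusted p of 0.941 by limma. It was also the 1 member at an unadjusted p under 0.05 in knockout bone, against 624 of all genes (4.90%).

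In wild-type bone Dnajb1 read 1589, 2119, 1287 and 1626 with estrogen, against 1493, 2234, 2149 and 2227 with vehicle. The groups overlapped here because the WT-OVX replicate 1 mouse was far under its 3 group mates. The wild-type difference was −0.29 ± 0.17 (SE; adjusted p = 0.643 by limma). Averaged over both genotypes, the estrogen difference of Dnajb1 was −0.43 ± 0.12 (SE; 95% interval −0.68 to −0.18), with an unadjusted p of 0.00202 and an adjusted p of 0.352 by limma. In that average 2 of all genes passed (0.0157%) and no member did, and Dnajb1 was the 1 member among the 783 genes (6.15%) at an unadjusted p under 0.05. The averaged difference stayed below 0 in each of 28 other settings, between −0.50 and −0.29, with adjusted p between 0.0811 and 0.999 by limma.

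The Dnajb1 difference lay below 0 in both replicate sets on average and in knockout bone, but not in wild-type bone, and its probe sets did not move alike. Averaged over genotypes it was −0.48 ± 0.12 (SE) in replicates 3 and 4 and −0.37 ± 0.18 in replicates 1 and 2, with 2 mice per group in each. Within wild-type bone the values were −0.59 ± 0.17 in replicates 3 and 4 and 0.01 ± 0.25 in replicates 1 and 2. Within knockout bone the values were −0.37 ± 0.17 in replicates 3 and 4 and −0.76 ± 0.25 in replicates 1 and 2. The second Dnajb1 probe set read 736, 1241, 1431 and 1147 in ERaKO-E2-4hr mice, against 1371, 1573, 1423 and 1456 in ERaKO-OVX mice. Its ERaKO-E2-4hr replicate 3 mouse was above the lowest vehicle mice, so these groups overlapped, and the difference was −0.39 ± 0.22 (SE). In wild-type bone that probe set gave 0.11 ± 0.22, opposite in sign to the first, and averaged over genotypes it gave −0.14 ± 0.15. The estrogen response of Dnajb1 in knockout minus wild-type bone was −0.27 ± 0.23 by the first probe set (adjusted p = 0.782 by limma), which did not pass.

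None of the other HSP70 and HSP110 members passed in an estrogen comparison with the used probe set. Hspa8, the constitutive HSP70 of the cytosol, averaged 20801 ± 7303 in WT-E2-4hr and 23995 ± 12125 in WT-OVX, and 21593 ± 4961 in ERaKO-E2-4hr and 20013 ± 3268 in ERaKO-OVX. Hspa5, the endoplasmic reticulum HSP70 also called BiP, averaged 12722 ± 3332 in WT-E2-4hr and 10741 ± 2166 in WT-OVX, and 12197 ± 3965 in ERaKO-E2-4hr and 9776 ± 845 in ERaKO-OVX. Its averaged estrogen difference was 0.25 with a 95% interval of −0.09 to 0.59, the highest of the 10 members by their used probe sets. With 1 mouse left out at a time, this difference was 0.15 to 0.33. The other Hspa5 probe sets then gave −0.002 to 0.25 and 0.02 to 0.31, none of them passing. For Hspa4, an exchange factor of the HSP110 family, the averaged difference was 0.17 ± 0.11, with means of 1862 ± 414 in WT-E2-4hr and 1507 ± 152 in WT-OVX, and 1847 ± 151 in ERaKO-E2-4hr and 1785 ± 213 in ERaKO-OVX. The sign depended on the probe set, since the other 3 Hspa4 probe sets gave −0.30 ± 0.27, −0.63 ± 0.32 and −0.37 ± 0.48 in that average, and the mean over all 4 gave −0.28, none of them passing.

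The HSP90 member and the mitochondrial pair did not pass either. Hsp90aa1, the inducible cytosolic HSP90, averaged 13475 ± 1423 in WT-E2-4hr and 11329 ± 1085 in WT-OVX, and 12149 ± 2857 in ERaKO-E2-4hr and 13274 ± 1359 in ERaKO-OVX. Its estrogen differences were −0.15 ± 0.17 in knockout and 0.25 ± 0.17 in wild-type bone, and the difference between these responses, −0.40 ± 0.24 (SE), did not pass (adjusted p = 0.705 by limma). Hspd1, the mitochondrial chaperonin known as HSP60, averaged 5565 ± 1663 in WT-E2-4hr and 4793 ± 938 in WT-OVX, and 6116 ± 1720 in ERaKO-E2-4hr and 5797 ± 467 in ERaKO-OVX. Hspe1, its lid, averaged 2924 ± 179 in WT-E2-4hr and 3375 ± 1213 in WT-OVX, and 3343 ± 1076 in ERaKO-E2-4hr and 2754 ± 138 in ERaKO-OVX.

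The stress-inducible members Hspb1 and Hspa1b varied most from mouse to mouse. Hspb1, a small heat shock protein of muscle and other contractile or stressed cells, had an SD of 0.838 on the log2 scale over the 16 arrays, and Hspa1b, an inducible HSP70 whose near-identical neighbour Hspa1a the probes may not separate, had 0.734. For the other 8 members this SD was 0.220 to 0.402, with Hspa4 the least variable. The estrogen differences of Hspb1 were 0.55 ± 0.55 (SE) in knockout and −0.41 ± 0.55 in wild-type bone, within the error in each. For Hspa1b they were 0.29 ± 0.50 in knockout and −0.41 ± 0.50 in wild-type bone, and the knockout value turned to −0.27 without ERaKO-E2-4hr replicate 1, the mouse with the highest Hspa1b (1163). The 20 muscle genes had these signs over all 16 arrays, higher with estrogen in knockout bone for 20 of 20 (median 1.16) and lower in wild-type bone for 19 of 20 (median −1.0), none of them passing. Their summed signal ran from 11863 to 251532 in WT-E2-4hr, 23427 to 641010 in WT-OVX, 5410 to 889734 in ERaKO-E2-4hr and 10222 to 193736 in ERaKO-OVX, and their part in these differences was not tested.

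**Figure D2:**
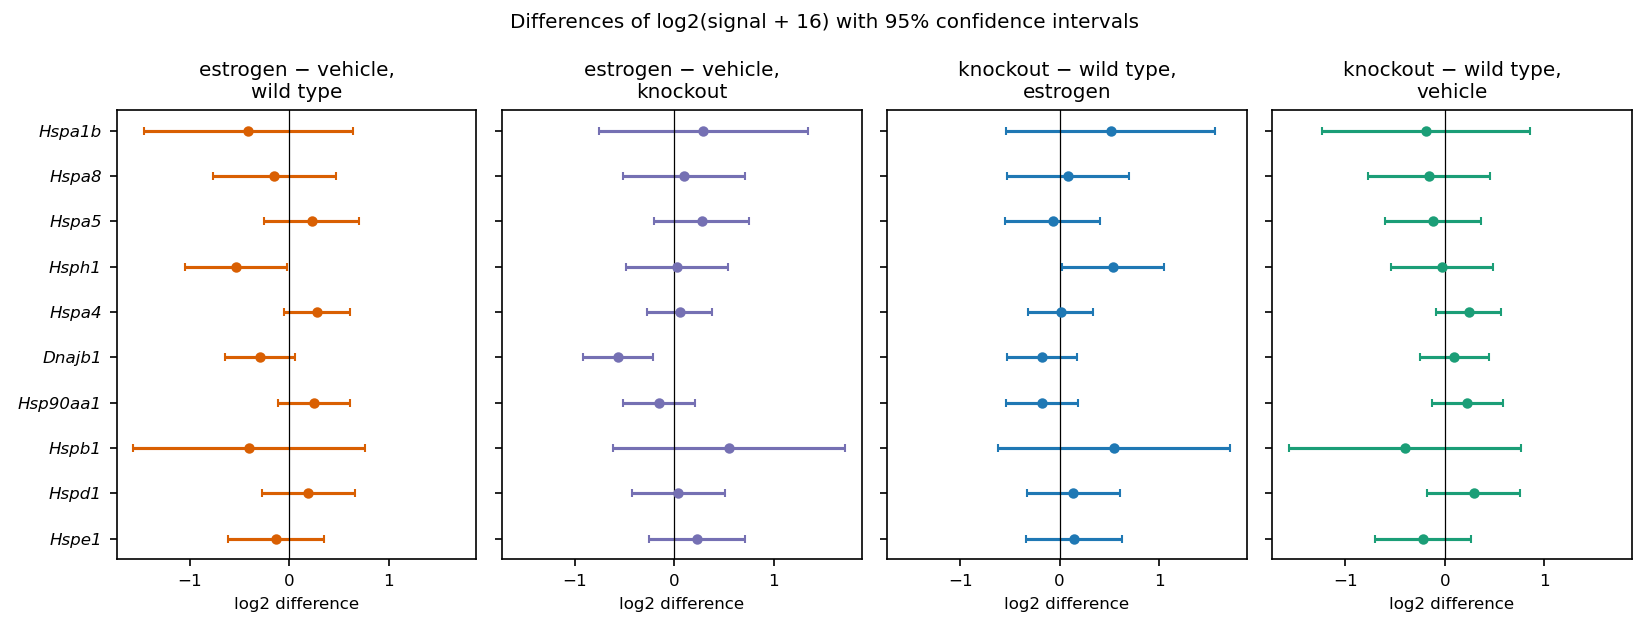
Difference on the log2(signal + 16) scale for each of the 10 genes in 4 comparisons, estrogen minus vehicle in wild-type and in knockout mice, and knockout minus wild type under estrogen and under vehicle. Points are limma estimates and lines are 95% intervals. The Dnajb1 interval in knockout mice (−0.91 to −0.21) and both Hsph1 intervals that involve WT-E2-4hr do not reach 0, and no adjusted p was under 0.05.

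Loss of the receptor in osteoclasts had no detected effect on the members either. Under vehicle, none of 10 members or 28 probe sets passed, as for all genes (0%), and under estrogen the counts were again 0 of 10, 0 of 28 and 0% of all genes. At an unadjusted p under 0.05 there was no member under vehicle, against 459 of all genes (3.60%), and 1 member, Hsph1, under estrogen, against 859 (6.75%). Averaged over treatments the largest differences of knockout minus wild type were 0.25 ± 0.17 for Hsph1 and 0.22 ± 0.16 for Hspd1, and no gene of the array passed (0%). The second Hsph1 probe set gave 0.33 ± 0.15 in that average (adjusted p = 1 by limma). None of the members differed in its estrogen response between genotypes (0% of all genes), and there 6 members had a higher and 4 a lower response in knockout than in wild-type bone (median 0.15, against 0.01 over all genes).

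In its used probe set, Hspa4 was the member whose genotypes did not overlap under vehicle. It read 1672, 1629, 1739.5 and 2097 in ERaKO-OVX mice, against 1615, 1293, 1614 and 1509 in WT-OVX mice. All knockout mice were above all wild-type mice, by a narrow gap, as was so for 286 of all genes (2.25%) in that direction. The difference was 0.24 ± 0.16 (SE; 95% interval −0.09 to 0.57), with an adjusted p of 0.952 by limma. In the other 3 Hspa4 probe sets the genotypes overlapped under vehicle, with differences of 0.05 ± 0.38, 0.05 ± 0.45 and −0.25 ± 0.68, and their log2 signals had Pearson r of −0.33, −0.25 and −0.14 with the used one over the 16 arrays. Under estrogen the genotypes overlapped in the used probe set, with 1739.9 to 2063 in knockout mice and 1424 to 2319 in wild-type mice. A further Hspa8 probe set, not the used one, also stood apart under vehicle, at 11901 to 14251 in ERaKO-OVX and 10817 to 11621 in WT-OVX mice. It did not pass, and how many of all probe sets stood apart was not counted.

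One probe set of Hspa8 followed the vehicle and estrogen groups in a part of the mice. In wild-type bone it read 329, 399.7, 272 and 288 with estrogen, against 291, 170.5, 1102 and 1524 with vehicle. In knockout bone it read 288, 248, 339 and 423 with estrogen, against 322, 695, 1186 and 1065 with vehicle. The 4 vehicle mice of replicates 3 and 4 were high in both genotypes, and the ERaKO-OVX replicate 2 mouse lay below them. The other 3 vehicle mice (170.5 to 322) lay within or under the range of the 8 estrogen mice (248 to 423). Within replicates 3 and 4 the estrogen difference averaged over genotypes was −1.84 ± 0.15 (SE; adjusted p = 0.0284 over all probe sets by limma, 2 mice per group). The adjustment does not cover the choice of this part of the mice or of this comparison, so the pass is no independent support. Of all 45037 probe sets, 3 passed in that comparison (0.00666%), 2 of them lower (0.00444%). By genotype the replicate 3 and 4 differences were −1.53 ± 0.22 in knockout bone (adjusted p = 0.407) and −2.15 ± 0.22 in wild-type bone (adjusted p = 0.115).

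The same Hspa8 probe set did not behave in this way in replicates 1 and 2. There the estrogen difference was −0.79 ± 0.41 in knockout and 0.66 ± 0.41 in wild-type bone, and −0.06 ± 0.29 averaged over genotypes. Over all 16 arrays the averaged difference was −0.95 ± 0.37 (SE; adjusted p = 1 by limma, unadjusted p = 0.0192). The response in replicates 3 and 4 minus that in replicates 1 and 2, a test chosen after seeing the data, was −1.77 ± 0.34 (SE; 95% interval −2.49 to −1.06), with an unadjusted p of 9.23e-05 and an adjusted p of 1, and no probe set of the array passed it (0%). Over 16 arrays the log2 signals of this probe set had Pearson r of −0.48, 0.00 and −0.40 with the other 3 Hspa8 probe sets, which share its mice and arrays. The used Hspa8 probe set gave 18449.7, 31503, 18214 and 15036 in WT-E2-4hr, against 21193, 41848, 15703 and 17234 in WT-OVX, with no drop in the treated mice of replicates 3 and 4. Which Hspa8 transcript each probe set reads was not analysed here.

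**Figure D3:**
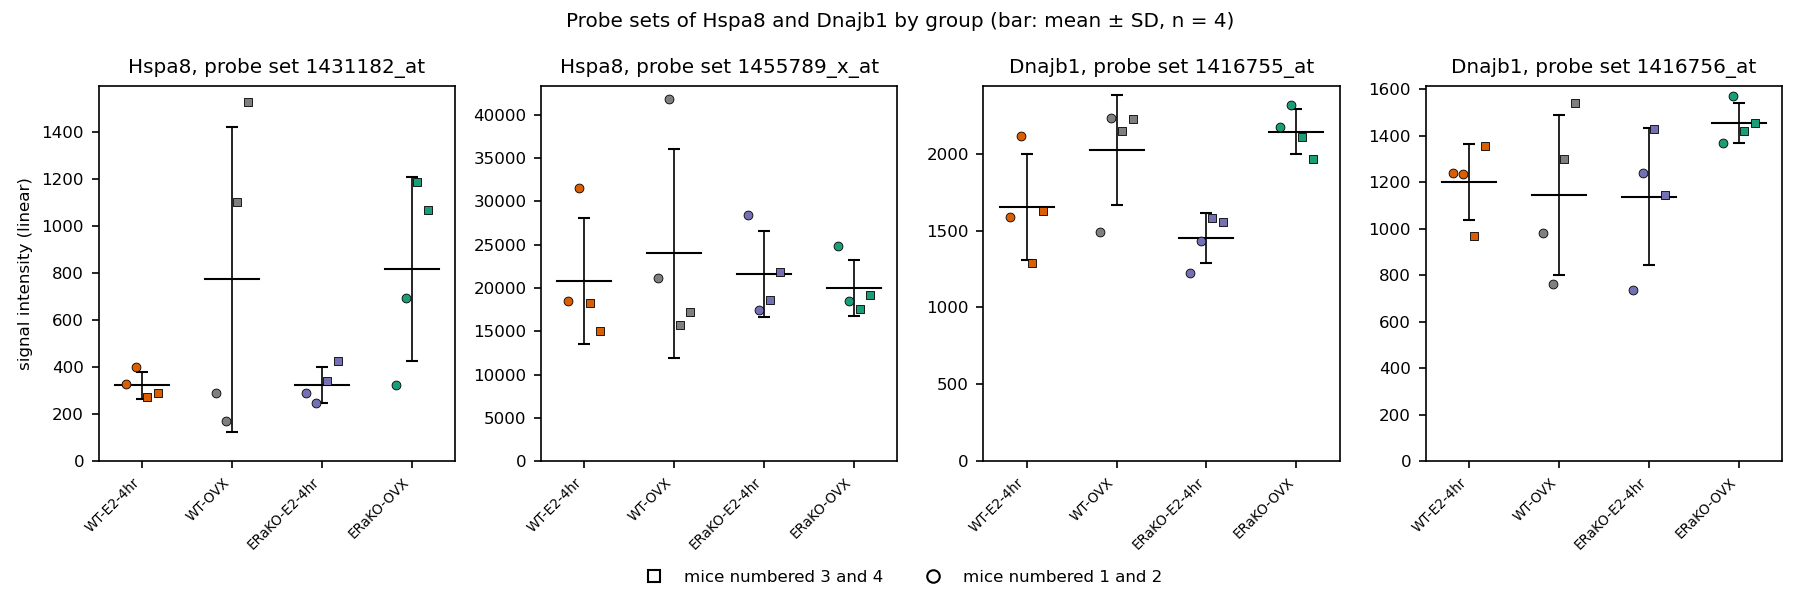
Array signal by group, on separate axes, of 2 Hspa8 probe sets and of both Dnajb1 probe sets, with 1 point per mouse (squares for replicates 3 and 4, circles for replicates 1 and 2). In 1 Hspa8 probe set the 4 vehicle mice of replicates 3 and 4 (1065 to 1524) stand above all estrogen mice (248 to 423), a pattern that the used Hspa8 probe set does not show.

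Hspb1 fell and Hspd1 rose in replicates 3 and 4 relative to replicates 1 and 2, over all 4 groups. These were the 2 of 10 members that passed, against 17.9% of all genes tested (2285 genes, 8.93% higher and 9.01% lower). That count is near the background and is not a result about these genes. Since the sets were told apart from these same arrays, the p-values here describe the split and are no independent evidence of it. Hspb1 had a lowest, median and highest signal of 571, 694 and 1017 in replicates 3 and 4, against 585, 2015 and 3239 in replicates 1 and 2. The sets overlapped because the WT-E2-4hr replicate 1 mouse, at 585, was low in its set. The difference was −1.21 ± 0.25 (SE; 95% interval −1.73 to −0.69), with an adjusted p of 0.00361 by limma, and it stayed below 0 and past the threshold under all 24 alternatives, between −2.24 (the mean over both probe sets) and −0.87 (without the 3 arrays high in spike-in signal).

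The second Hspb1 probe set showed the same direction with a larger difference. Its lowest, median and highest signals were 9.76, 52.4 and 491 in replicates 3 and 4, against 206, 758 and 2005 in replicates 1 and 2. Only the WT-E2-4hr replicate 3 mouse, at 491, overlapped replicates 1 and 2. The difference was −3.27 ± 0.51 (SE; adjusted p = 0.000571 over all probe sets by limma). The 2 probe sets had a Pearson r of 0.88 over the 16 arrays.

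Muscle, adipocyte and osteoclast genes also differed between the replicate sets. All 20 muscle genes were lower in replicates 3 and 4 and passed, with a median difference of −4.04, and none was at 0 on any array, the lowest single signal being 11.5 in replicates 3 and 4 and 646 in replicates 1 and 2. The mouse with the highest muscle sum, ERaKO-E2-4hr replicate 1 at 889734, also had the highest Hspb1 (3239) and the highest Hspa1b (1163) of the 16. The order did not hold throughout, since WT-E2-4hr replicate 1 had a muscle sum of 186710 with an Hspb1 signal of 585 and an Hspa1b signal of 194. WT-E2-4hr replicate 3 had a muscle sum of 27103 with an Hspa1b signal of 454, above most mice of replicates 1 and 2. Adipocyte genes were lower in replicates 3 and 4 too, 5 of 5 tested and 4 of them passing (median −1.32), whereas 10 of 10 osteoclast genes were higher, 7 of them passing (median 0.95). Signal of 18S ribosomal RNA was 215 to 6608 in replicates 3 and 4, against 7798 to 30653 in replicates 1 and 2. The part of muscle, of other cell types and of RNA quality in the Hspb1 difference was not tested.

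**Figure D4:**
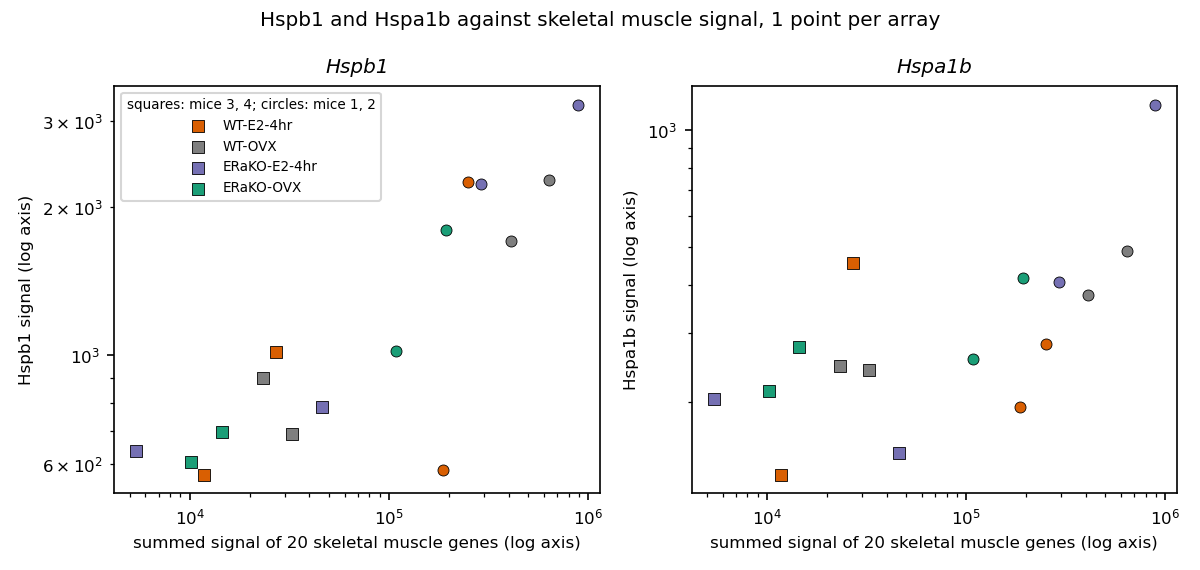
Signal of Hspb1 and of Hspa1b against the summed signal of 20 skeletal muscle genes, both on log axes, with 1 point per mouse (squares for replicates 3 and 4, circles for replicates 1 and 2, groups by colour). The muscle sums of the replicate sets do not overlap (5410 to 46282 in replicates 3 and 4, 109084 to 889734 in replicates 1 and 2), and the ERaKO-E2-4hr replicate 1 mouse is highest in all 3 measures.

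Hspd1 had a lowest, median and highest signal of 5423, 6016 and 8287 in replicates 3 and 4, against 3642, 4531 and 6044 in replicates 1 and 2. Of replicates 1 and 2, 1 mouse (ERaKO-OVX replicate 2, at 6044) lay within the range of replicates 3 and 4. The difference was 0.45 ± 0.11 (SE; 95% interval 0.22 to 0.68), with an adjusted p of 0.00943 by limma. Without the 3 arrays high in spike-in signal, all of them in replicates 1 and 2, it was 0.38 and did not pass (adjusted p = 0.0620).

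Hspe1, read from the promoter shared with Hspd1, did not pass. It had a lowest, median and highest signal of 2324, 2872 and 3075 in replicates 3 and 4, against 2476, 2984 and 4912 in replicates 1 and 2, and the difference was −0.30 ± 0.14 (SE; adjusted p = 0.160 by limma). Without the ERaKO-E2-4hr replicate 2 mouse the Hspe1 difference was −0.39 with an adjusted p of 0.0446. The second Hspe1 probe set averaged 1281 ± 148 in replicates 3 and 4, against 1308 ± 268 in replicates 1 and 2 (SD, n = 8 each). With 1 mouse left out at a time, its difference lay between −0.08 and 0.07, with no adjusted p under 0.725 by limma. Over the 8 mice of each set, which share their arrays, Hspd1 and Hspe1 had a Pearson r of 0.78 in replicates 3 and 4 and −0.55 in replicates 1 and 2.

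The used probe sets of Hspa1b and Hspa8 came close to the threshold in the comparison of replicate sets. Hspa1b had a lowest, median and highest signal of 130, 227 and 454 in replicates 3 and 4, against 194, 390.5 and 1163 in replicates 1 and 2. The difference was −0.75 ± 0.29 (SE; adjusted p = 0.0863 by limma), and without the WT-E2-4hr replicate 3 mouse, the highest of its set, it was −0.98 with an adjusted p of 0.0148. Without the 3 arrays high in spike-in signal it was −0.45 (adjusted p = 0.312). The other 2 Hspa1b probe sets were lower in replicates 3 and 4 mainly in ERaKO-E2-4hr, with means of 113 against 379 and 100 against 379. Their wild-type means were not lower there, at 205 against 182 and 150 against 119 with estrogen, and 238 against 236 and 140 against 122 with vehicle. In ERaKO-OVX they were 191 against 195 and 142 against 146. For Hspa8 the difference was −0.44 ± 0.17 (SE; adjusted p = 0.0827), −0.53 without the ERaKO-E2-4hr replicate 2 mouse (adjusted p = 0.0355) and −0.14 without those 3 arrays (adjusted p = 0.441). Quantile normalization turned it to 0.03, with no call. The used Hspa8 probe set averaged 17928 ± 2127 in replicates 3 and 4, against 25273 ± 8409 in replicates 1 and 2 (SD, n = 8 each). Of the others, 2 were closer between the sets, at 12594 ± 1159 against 12206 ± 1673 and 10715 ± 1536 against 11884 ± 1482. These had Pearson r of 0.16 and 0.62 with the used one over the 16 arrays. The Hspa8 probe set with the 4 high vehicle mice differed by 0.95 ± 0.29, higher in replicates 3 and 4 (adjusted p = 0.0406), so probe sets of this gene had opposite signs. That call was lost without any 1 of the 4 WT-OVX mice, without ERaKO-OVX replicate 1, 3 or 4 or without ERaKO-E2-4hr replicate 4, with adjusted p between 0.0604 and 0.0965. It was also lost without the 3 arrays high in spike-in signal (adjusted p = 0.0526) and after quantile normalization (adjusted p = 0.0598).

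Hspa5 and Hsp90aa1 also gave different answers by probe set. The used Hspa5 probe set differed by −0.07 between the replicate sets (adjusted p = 0.785 by limma), while the other 2 were higher in replicates 3 and 4, by 0.57 ± 0.14 (adjusted p = 0.0127) and 0.64 ± 0.16 (adjusted p = 0.0149). The first of these averaged 5929 ± 1347 in replicates 3 and 4 and 3979 ± 698 in replicates 1 and 2, and the second averaged 5014 ± 1656 in replicates 3 and 4 and 3152 ± 664 in replicates 1 and 2 (SD, n = 8 each). The used Hsp90aa1 probe set differed by 0.06, while another was 1.03 ± 0.21 higher in replicates 3 and 4 (adjusted p = 0.00500), with means of 6586 ± 1542 in replicates 3 and 4 and 3372 ± 1297 in replicates 1 and 2. With the mean over the probe sets of each gene, both passed, at 0.38 for Hspa5 (adjusted p = 0.0349) and 0.50 for Hsp90aa1 (adjusted p = 0.0125). Of all 28 probe sets, 7 passed (5 higher and 2 lower), against 11.2% of all probe sets, which were not filtered by signal. That share is not a like background, since most member probe sets were above the filter set for genes, where 17.9% of genes passed. Of these 28, 3 passed without the 3 arrays high in spike-in signal. Without those arrays the first further Hspa5 probe set gave 0.42 (adjusted p = 0.101) and the Hsp90aa1 one 0.63 (adjusted p = 0.0368). Dnajb1, Hsph1 and Hspa4 differed by 0.01, −0.07 and 0.11 between the sets and passed in no probe set.

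**Figure D5:**
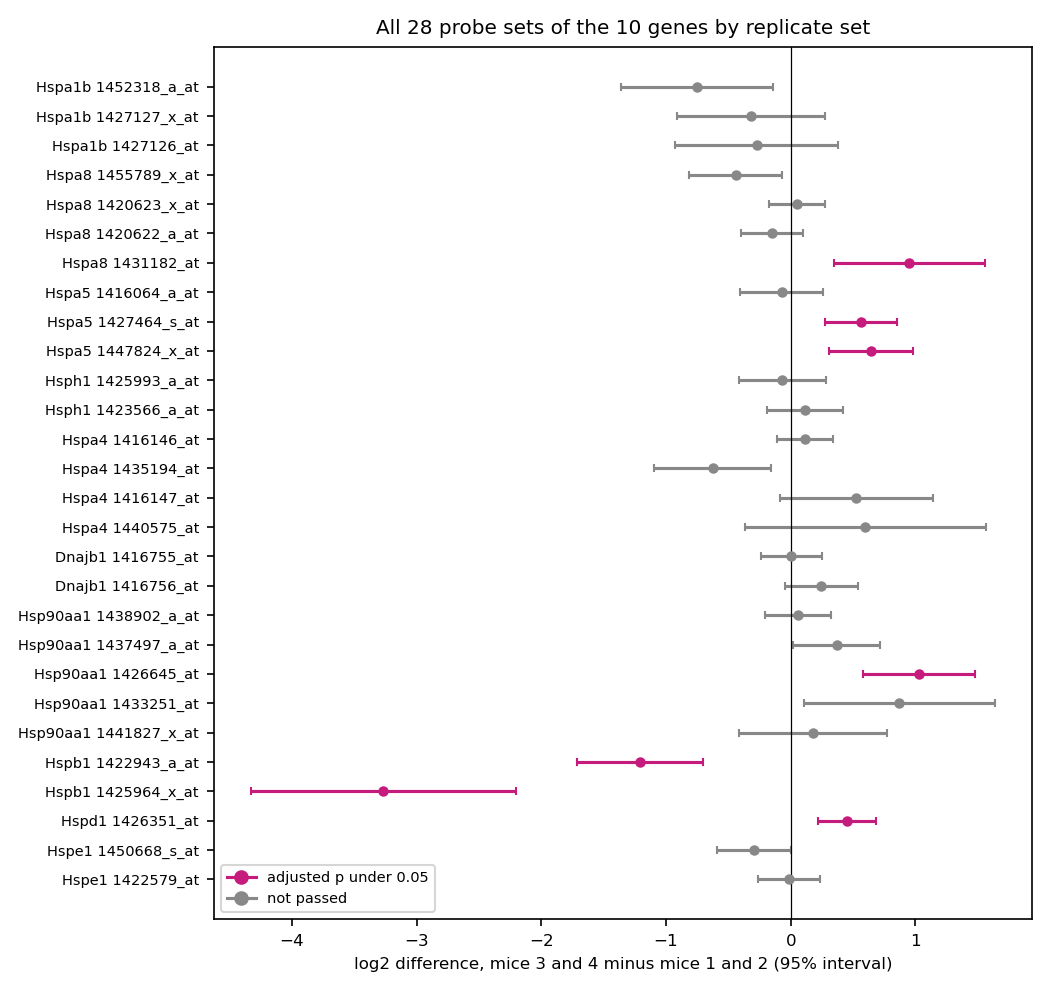
Difference between replicates 3 and 4 and replicates 1 and 2 (log2 scale) for each of the 28 probe sets of the 10 genes, with 95% intervals, from limma over all 45037 probe sets. Magenta points have an adjusted p under 0.05, which holds for 7 probe sets, 5 higher and 2 lower. The lowest value is that of the second Hspb1 probe set at −3.27.

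The genes most like the variable members over the 16 arrays were sought outside the 10 members, so no member could be named here. Ranked by Pearson r of log2 signal, the 3 nearest to Hspb1 were Vsig4 (0.95), Lyve1 (0.94) and Igfbp6 (0.94). Within the replicate sets these were 0.79 for Vsig4, 0.37 for Lyve1 and 0.57 for Igfbp6 in replicates 3 and 4, and 0.90, 0.91 and 0.93 in replicates 1 and 2. Nearest to Hspa1b were Rras (0.94), Abca8a (0.93) and Ecm1 (0.92), and within the sets Rras kept 0.91 in replicates 3 and 4 and 0.92 in replicates 1 and 2. Nearest to Hspa8 were the ribosomal protein genes Rps14 and Rps29 (both 0.94) and the respiratory chain gene Cox7a2 (0.93). Within the sets these had 0.68, 0.60 and 0.72 in replicates 3 and 4, and 0.95, 0.96 and 0.94 in replicates 1 and 2. Their means were lower in replicates 3 and 4, at 23917 against 33847, 35458 against 64607 and 14489 against 23017. Nearest to Hsph1 were 1110038F14Rik (0.85), Mrpl40 (0.81) and Rpp21 (0.80). These are descriptions, chosen as the highest of all tested genes that were not members, over the same arrays.

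Among other chaperone and folding genes, none of 89 tested (95 on the array, of 102 listed) passed in any estrogen or genotype comparison. The member of the HSP90 cochaperone list with the smallest p for estrogen in wild-type bone was Fkbp5, an immunophilin that binds HSP90 in steroid receptor complexes. Fkbp5 was 1.01 ± 0.23 (SE) higher on the log2 scale with estrogen in wild-type bone, unadjusted p 0.000508 and adjusted p 0.238 by limma, and 0.33 ± 0.23 in knockout bone. The knockout response of Fkbp5 minus the wild-type response was −0.68 ± 0.33 (SE; adjusted p = 0.659), so a genotype difference was not shown. Of 27 genes of the endoplasmic reticulum chaperones and the unfolded protein response, 20 had a higher mean with estrogen in knockout bone, 21 in wild-type bone and 22 averaged over genotypes, against 48.5% of all genes in the average. The median of this list was 0.17 in the average and −0.01 over all genes, and none passed. In it Asns, asparagine synthetase, was 0.71 higher (adjusted p = 0.260) and Xbp1, a transcription factor of the unfolded protein response, was 0.52 ± 0.18 higher (adjusted p = 0.397) in wild-type bone. In the J protein list Dnaja4 was 0.56 lower with estrogen in wild-type bone, a difference of −0.56 with an adjusted p of 0.432.

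Between the replicate sets, 22 of the 89 other genes passed, 10 higher and 12 lower in replicates 3 and 4, against 17.9% of all genes tested (8.93% higher and 9.01% lower), the background for the list counts that follow too. Of 6 small heat shock proteins tested, 4 fell and none rose, with differences of −3.22 ± 0.23 for Cryab, −2.52 for Hspb8, −2.36 for Hspb6 and −1.08 for Hspb2. Cryab, alpha-B crystallin, and the others are abundant in muscle, as is Unc45b, a myosin chaperone of the HSP90 list, which fell by 1.58. The muscle sums given above moved with them, and their part was not tested. Among 21 J proteins and HSP70 cochaperones, Dnajb5, Dnajb4 and Bag1 fell by 0.69, 0.57 and 0.37, and Dnaja1 rose by 0.39. Hspa14, an HSP70 of the ribosome, rose by 0.47, the mitochondrial import factor Timm44 fell by 0.54, and Hmox1, the stress-induced heme oxygenase, rose by 0.92. Of 5 genes for collagen folding and modification, 3 rose, Serpinh1 (the collagen chaperone HSP47) by 0.62, Plod2 by 0.59 and P4ha1 by 0.58. Among the 27 genes of the endoplasmic reticulum list 4 rose, Edem1 the most with 0.57, while 3 fell, Chac1 by 1.38, Hyou1 by 0.80 and Atf4 by 0.58. None of the 8 subunits of the cytosolic chaperonin TRiC passed.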

How the data were processed

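Total RNA of whole distal femur was hybridized to 16 Affymetrix mouse arrays, 1 per mouse and without pooling, per the labels. Each probe set has a deposited intensity on a linear scale, which the authors computed in GCOS, as the submitters' processing notes state without a version. The 2% trimmed mean of each array was 500, and no further scaling was done. Detection calls were not used. The labels of ERaKO-OVX name no vehicle, which was taken from the series' design text. Symbols came from the platform annotation.

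Using limma 3.58.1 (R 4.3.3), a model with 1 mean per group and 12 residual degrees of freedom was fitted to log2(signal + 16), which understates the change of low genes. For each gene the probe set with the highest mean log2 signal was used, and the lowest 30% of genes were left out, leaving 12735. All 45037 probe sets that were not controls were fitted apart, with no filter. P-values were two-sided, from an empirical Bayes fit with a variance trend, and adjusted by the Benjamini-Hochberg method at 0.05. They measure the spread between these mice. The number of arrays limits the precision. Comparisons were estrogen against vehicle and knockout against wild type, each within the other factor and averaged, the difference between estrogen responses, and replicates 3 and 4 against 1 and 2 with groups as terms. The test of the estrogen response between these replicate sets was added after seeing the data.

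The 10 members, the pathway and marker lists and the replicate sets were chosen with earlier results of these data known. All members were named, with up to 4 passing genes per pathway list by size, or otherwise the 2 of smallest p. For the 4 most variable members, the 3 nearest non-member genes by Pearson r were named too.

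The replicate numbers come from the sample titles. Deviations of same-numbered arrays from their group means correlated at 0.178 to 0.593 (median 0.314, 24 pairs), all above 0.1. Those of the other number of the same set correlated at 0.0307 to 0.604 (median 0.354), and those of the other set had a median of −0.342. Of 16 arrays, 9 correlated best with their own number, so a pairing by number was not told apart from the replicate set. A block of replicate number was tried as an alternative. The fit was tested on simulated data that held no difference between replicate sets, unlike these arrays, so the test does not show how the fit behaves with one. No sequences of array probes were used here.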

Additional observations from a re-analysis of the deposited data

Results flagged for a closer look

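Of 112 sets of 4 arrays (28 probe sets in 4 groups), 5 held a mouse far from the other 3, where chance flags about 1 in 20. Dnajb1 in the used probe set read 1493 in WT-OVX replicate 1, against 2149 to 2234 in the other WT-OVX mice. Hspa5 in one further probe set read 3019 in WT-OVX replicate 2, against 4796 to 5007 in the others. A dim Hsp90aa1 probe set read 190 in ERaKO-E2-4hr replicate 1, against 111 to 121 in the others. Another dim Hsp90aa1 probe set read 7.27 in WT-OVX replicate 2, against 35.0 to 38.4 in the others. Hspe1 read 2549 in ERaKO-OVX replicate 3, against 2801 to 2854 in the others. Of these arrays, WT-OVX replicate 2 and ERaKO-E2-4hr replicate 1 are among the 3 with high spike-in signal, whose part was not tested.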

How the results depend on the processing

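No member passed in an estrogen or genotype comparison of genes under any alternative tried, and for the 28 probe sets the exception was 1 of Hspa8 for estrogen averaged over genotypes in replicates 3 and 4 alone (a count of 1). Over all genes, the counts for estrogen in wild type were 5 with array weights and 5 with a term for the replicate set (main 0). For estrogen in knockout they were 1 after quantile normalization, 1 with the lowest 50% left out, 1 with the mean over probe sets, 1 with weights, 1 with the set term and 2 without the 3 arrays high in spike-in signal (main 0). Weights gave 1 for knockout under vehicle, the set term gave 1 for knockout averaged over treatments, and replicates 1 and 2 alone gave 4 for the difference between responses (main 0 each). The averaged estrogen count (main 2) was 6 with weights, 8 with the set term and 0 in replicates 1 and 2 alone. With the replicate block that count was 3, and the block changed no other call. Between the replicate sets, 1250 genes passed without the 3 arrays (main 2285), with 1 member (main 2) and 3 member probe sets (main 7), and 4 members passed with the mean over probe sets. That mean turned Hspa5 to 0.38 (adjusted p = 0.0349; main −0.07). The test of the response between the sets gave 1 without the 3 arrays (main 0). Leaving out 1 replicate gave 0 to 2 genes for estrogen in wild type, 0 to 3 in knockout, 1 to 3 averaged, 0 to 1 for knockout averaged, 1512 to 2495 between the sets (2 to 4 members, 6 to 8 member probe sets) and 0 to 4 for the added test. Causes were not tested. Of 2471 gene values, 2251 kept sign and side, 1 lost its call, 5 gained one, 1 reversed and 213 that never passed changed sign.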

Other observations

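Knockout minus wild-type differences under estrogen were below 0 for 8 of 8 subunits of the cytosolic chaperonin TRiC, which folds actin and tubulin, with a median of −0.11 on the log2 scale and none passing, while 53.4% of all genes were above 0. Under vehicle the same list had 4 subunits above and 4 below 0, and averaged over treatments 3 above and 5 below. Bag2, a cochaperone that regulates HSP70, had the smallest p of its list for knockout averaged over treatments, with a difference of 0.48 ± 0.12 (SE) and an adjusted p of 1 by limma.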
